A study of Mus musculus with 12 samples.

Results

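The 39 protein-coding genes of the 4 mouse Hox clusters were followed through maps of open chromatin in aortic endothelial cells (MAECs). They were all genes of the RefSeq table of GRCm38.p6 whose symbol is Hoxa, Hoxb, Hoxc or Hoxd followed by a number, out of 21631 protein-coding genes on chromosomes 1 to 19 and X. Hoxa on chromosome 6 held 11 of them, Hoxb on chromosome 11 held 10, and Hoxc on chromosome 15 and Hoxd on chromosome 2 held 9 each. The assay was ATAC-seq, which tags accessible DNA with a transposase, in 8 samples forming 4 groups of 2. The groups were WDM-WDO, CDM-WDO, WDM-CDO and CDM-CDO, read as the diet of the mothers (M) and then of the offspring (O); the labels abbreviate the diets as WD and CD, and the title names a high-fat diet of the mothers. Both WDO groups had been put back on WD, for 4 weeks. The peak names carry 12w in the WDO lists and 8w (written 08w) in the CDO lists, so that offspring diet and whatever this mark stands for cannot be told apart. No source used here gives strain, sex, age or cell purity. The 4 H3K27ac samples were not analysed here.

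Hox genes encode homeodomain transcription factors that give cells their position along the body axis. They lie in tight clusters, all genes of a cluster are transcribed in the same direction, and they are numbered by paralogue group from 1, at the 3′ side, to 13. Genes of low number are used early and towards the head, those of high number late and towards the tail, and adult cells, vessel walls included, keep part of the pattern they were born with. Silent Hox genes are held by Polycomb complexes, which mark their chromatin with H3K27 methylation, while trithorax complexes and H3K27 demethylases keep active ones open, and retinoic acid switches on the 3′ genes.

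Each group had 1 list of peaks called by MACS2, so differences between groups have no replicate check and no p-value is given. Shares carry 95% Wilson intervals for counting error only, and Hox genes that share a peak are not independent counts. A peak that is not called does not show closed chromatin. The lists held 26275 peaks in WDM-WDO, 18962 in CDM-WDO, 28319 in WDM-CDO and 22178 in CDM-CDO. At the summit of a called peak at least 16, 15, 15 and 14 reads were piled up, in that order of lists; read depth per sample is unknown. Of 12 endothelial marker genes, 10, 11, 11 and 7 had a peak within 10 kb, but a peak within 1 kb of a gene end was called for only 4, 4, 6 and 4, and in no list at Pecam1, Cdh5, Tek, Vwf, Egfl7 or Emcn. Markers of other cells also had gene-end peaks: 10, 2, 4 and 4 of 10 macrophage and monocyte markers, 7, 3, 9 and 8 of 12 lymphocyte markers, 4, 1, 0 and 0 of 6 neutrophil markers, 1, 1, 2 and 3 of 8 smooth muscle markers, 2, 1, 1 and 1 of 7 fibroblast markers and 0, 0, 1 and 1 of 6 adipocyte markers. The part of such cells in the Hox results was not tested.

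The promoters that Hox peaks reached are shown first, because they are the start sites where a peak and a promoter sequence could be set side by side. The promoter windows, from 250 bases before to 50 bases after a gene's start, come from RefSeq with the build GRCm38.p6, and 22 of the 39 genes had at least 1 of them, 24 windows in all. A called peak reached into 4 of these: those of Hoxa5 (chr6:52204538-52204837, minus strand), Hoxa3 (chr6:52213018-52213317, minus strand), Hoxb4 (chr11:96318017-96318316, plus strand) and Hoxd1 (chr2:74762730-74763029, plus strand). The window of Hoxa13 (chr6:52260831-52261130, minus strand) is set beside them because it was the richest in CG dinucleotides of those that no peak reached; it was chosen after its value was seen. Capitals mark the CG dinucleotides, the sites of DNA methylation.
Hoxa5: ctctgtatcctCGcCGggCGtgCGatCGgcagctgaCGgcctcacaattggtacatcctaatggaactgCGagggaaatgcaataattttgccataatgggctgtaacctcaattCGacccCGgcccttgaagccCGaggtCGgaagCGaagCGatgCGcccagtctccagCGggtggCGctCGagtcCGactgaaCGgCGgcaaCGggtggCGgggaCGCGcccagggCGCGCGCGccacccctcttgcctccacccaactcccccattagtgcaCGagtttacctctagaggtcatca
Hoxa3: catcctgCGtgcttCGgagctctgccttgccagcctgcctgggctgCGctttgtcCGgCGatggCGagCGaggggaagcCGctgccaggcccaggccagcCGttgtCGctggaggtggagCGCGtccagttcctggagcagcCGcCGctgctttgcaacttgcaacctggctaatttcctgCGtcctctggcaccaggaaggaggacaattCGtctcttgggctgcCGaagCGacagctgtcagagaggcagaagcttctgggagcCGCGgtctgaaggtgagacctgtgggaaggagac
Hoxb4: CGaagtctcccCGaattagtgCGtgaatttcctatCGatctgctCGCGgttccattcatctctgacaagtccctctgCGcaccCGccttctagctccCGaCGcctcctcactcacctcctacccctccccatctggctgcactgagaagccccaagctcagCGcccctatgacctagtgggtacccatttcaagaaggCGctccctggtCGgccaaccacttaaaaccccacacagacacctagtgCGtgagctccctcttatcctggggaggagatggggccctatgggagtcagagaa
Hoxd1: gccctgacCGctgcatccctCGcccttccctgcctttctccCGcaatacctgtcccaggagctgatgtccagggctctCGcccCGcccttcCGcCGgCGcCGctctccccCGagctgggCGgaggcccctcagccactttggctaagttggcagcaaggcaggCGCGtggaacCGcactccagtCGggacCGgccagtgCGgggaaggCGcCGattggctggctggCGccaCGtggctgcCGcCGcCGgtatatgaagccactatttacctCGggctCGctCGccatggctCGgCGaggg
Hoxa13: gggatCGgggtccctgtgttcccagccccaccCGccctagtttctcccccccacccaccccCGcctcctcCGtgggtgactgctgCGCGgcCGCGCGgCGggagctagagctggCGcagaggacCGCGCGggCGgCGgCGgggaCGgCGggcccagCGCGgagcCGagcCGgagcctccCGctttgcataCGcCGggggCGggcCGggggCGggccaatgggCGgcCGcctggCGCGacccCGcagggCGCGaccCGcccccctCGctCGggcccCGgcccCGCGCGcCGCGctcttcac
Hoxa5 and Hoxd1 held 29 CG dinucleotides each, Hoxa3 20, Hoxb4 14 and Hoxa13 45. The other 19 windows without a peak held between 4 and 37, with Hoxd13 the highest of them. The median of all 24 Hox windows was 14.5, against 7 over all 32851 windows of the table, and their median share of G and C was 57.7%, against 52.7%.

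Although Hox promoters were rich in CG, few of them held a peak. Peaks reached 2 of 24 Hox windows in WDM-WDO (8.33%), 2 in CDM-WDO (8.33%), 2 in WDM-CDO (8.33%) and 0 in CDM-CDO, against 32.2%, 27.2%, 34.9% and 32.6% of all windows. Among windows with at least as many CG dinucleotides as the Hox median, a limit set after the values were seen, peaks reached 1, 2, 2 and 0 of 12 Hox windows, against 69.0%, 62.9%, 76.3% and 72.9% of all such windows. The peaks covered all 300 bases of the Hoxa3 window in both WDM lists. They covered 28 bases of the Hoxa5 window in CDM-WDO and 143 in WDM-CDO, 182 bases of the Hoxb4 window in WDM-WDO, and 4 bases of the Hoxd1 window in CDM-WDO.

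Of the short motifs searched on both strands, GGGCGG, bound by SP and KLF factors, was in 10 of 24 Hox windows (41.7%), against 35.7% of all windows. TATAAA was in 4 (16.7%, against 13.6%), the homeodomain core TAATTA in 2 (8.33%, against 5.29%), both of Hoxd11, and TGATTGAT, bound by PBX and HOX proteins together, in 2 (8.33%, against 0.746%), those of Hoxa2 and Hoxd11. TGANTCA, bound by AP-1, was in 1 (4.17%, against 7.81%). CCGGAAG, bound by ETS factors, and the direct repeat bound by retinoic acid receptors were in none, against 8.86% and 0.00913% of all windows. No word of the set contains another, and a match is a description of letters only. Of the 4 windows under a peak, Hoxd1 held 2 matches to GGGCGG and the other 3 windows held no match to any motif of the set; Hoxa13 held 6 matches to GGGCGG.

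Peaks in the Hox clusters were mostly weak and seldom shared between the lists. Within 10 kb of the 39 genes, 30 peaks were called over the 4 lists, 8 in WDM-WDO, 7 in CDM-WDO, 10 in WDM-CDO and 5 in CDM-CDO. That is 3.04, 3.69, 3.53 and 2.25 per 10000 peaks of each list. Merged where they overlapped by at least 1 base, they made 20 regions. Of these, 1 (5%) was in all 4 lists, against 21.6% of all 48003 merged regions, 1 was in 3 lists, 5 were in 2, and 13 (65%) were in 1 list only, against 54.9% of all.

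**Figure D1:**
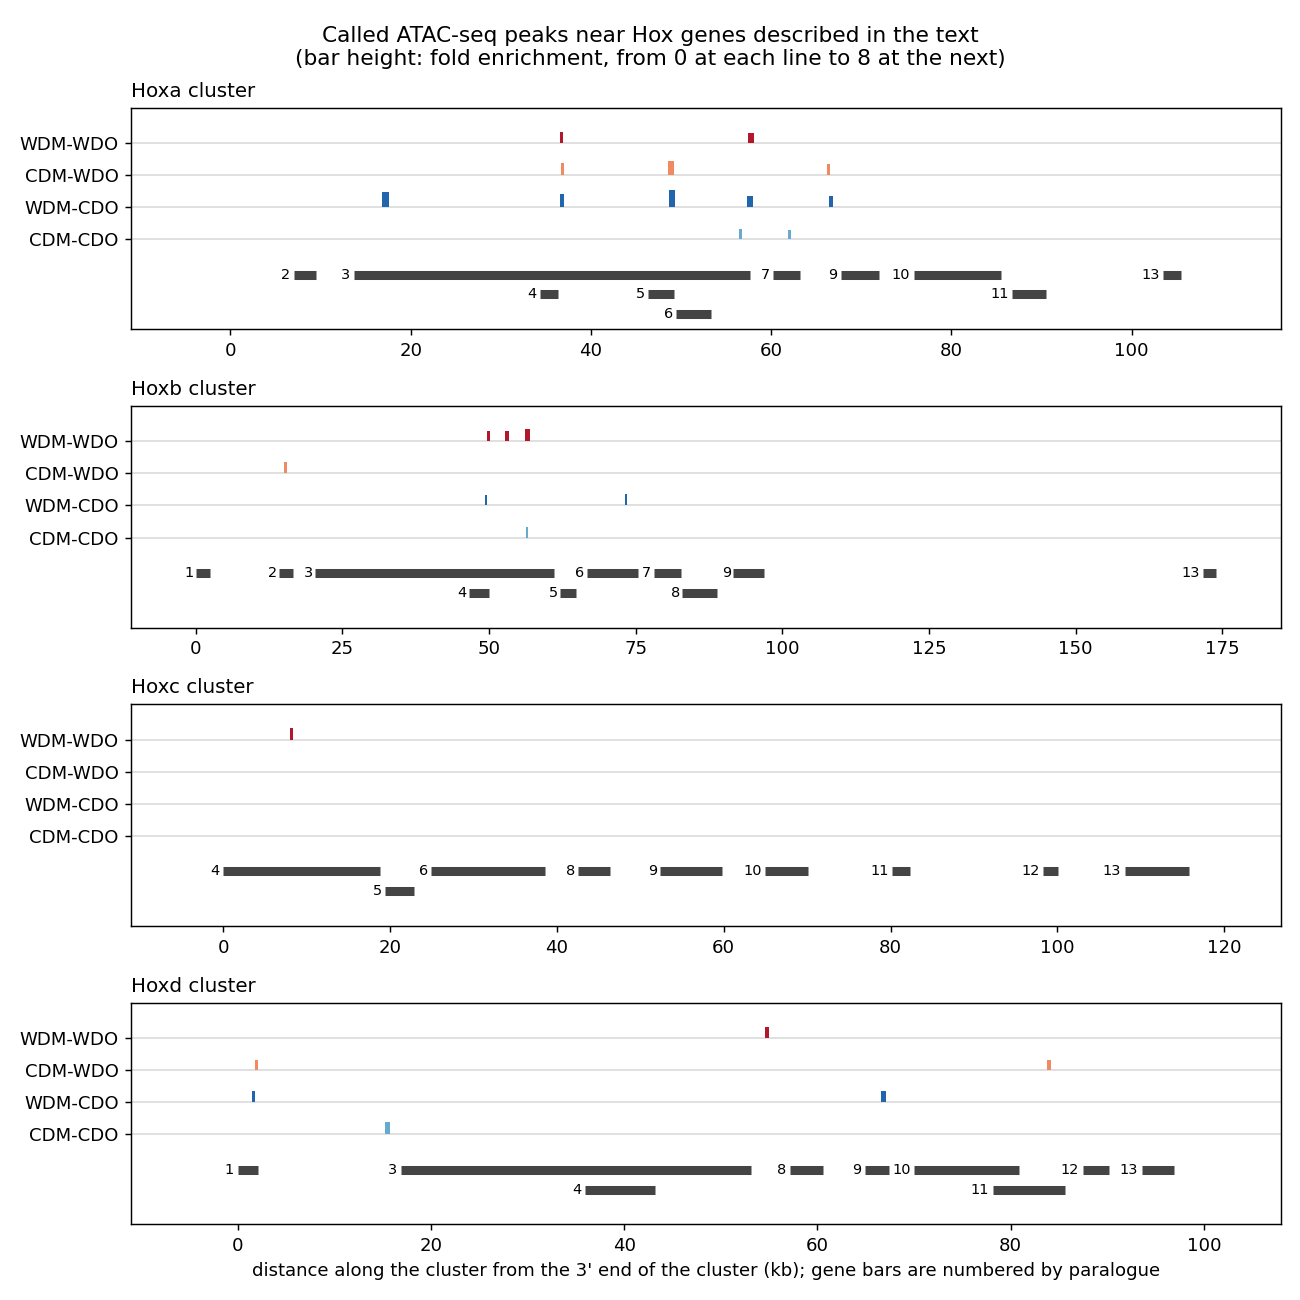
Called ATAC-seq peaks along the 4 Hox clusters. The x axis is the distance in kb from the 3′ end of the cluster, dark bars are gene spans numbered by paralogue group, and each coloured bar is a peak of 1 list described in the text, with its fold enrichment as height; Hoxa4 has a peak in 3 lists, Hoxc holds 1 peak, and the spans of Hoxa10 to Hoxa13 hold none.

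The region found in 3 lists lay upstream of Hoxa4, a regulator of vertebral identity. It started 230 bases from the 5′ end of the gene in WDM-WDO, 332 in CDM-WDO and 232 in WDM-CDO, with a fold enrichment over local background of 2.70, 3.02 and 3.20, a −log10 q of 3.10, 3.40 and 5.50 and 23, 21 and 28 reads at the summit. Fold, p and q are the authors' own values for each peak. No peak was called there in CDM-CDO.

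Hoxa5, which in endothelium is known to restrain the growth of new vessels, had a peak at its 5′ end in CDM-WDO (52203899 to 52204565, −log10 q of 7.11) and in WDM-CDO (52204039 to 52204680, 13.1), and none in WDM-WDO or CDM-CDO. This is the promoter printed above with 29 CG dinucleotides. The 3′ end of Hoxa6, which also helps pattern the thoracic skeleton, lay within 1 kb of the same peaks.

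Hoxa3, needed for the pharyngeal arches and the arteries that form in them, had a peak over its most distant 5′ end in WDM-WDO (52212815 to 52213483, −log10 q of 3.52) and in WDM-CDO (52212679 to 52213322, 5.43), and both covered the printed promoter in full. CDM-CDO had a separate peak 882 bases from that end (52211813 to 52212185, 3.57). WDM-CDO alone also had a peak near the 3′ end of Hoxa3 (52172179 to 52173017, 9.99).

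At Hoxa7, another gene of the trunk, a peak inside the gene was called in CDM-CDO alone (52217199 to 52217574, −log10 q of 1.97), 999 bases from the 5′ end. Between Hoxa7 and Hoxa9 a region was called in CDM-WDO (52221536 to 52221923, 3.91) and in WDM-CDO (52221751 to 52222212, 5.84). It lay 1174 and 885 bases from the 3′ end of Hoxa9, a gene of blood stem cells that in human endothelium is also known to act on adhesion molecule genes. Hoxa10, Hoxa11 and Hoxa13, genes of the limb and the urogenital tract, had no peak inside their spans or at their ends in any list.

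**Figure D2:**
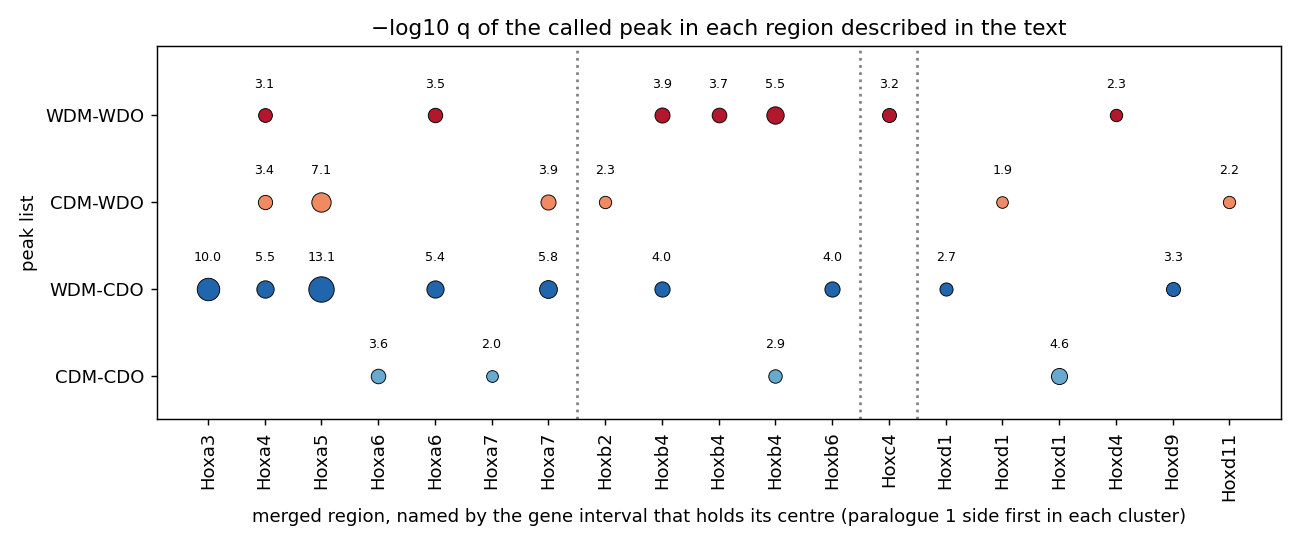
−log10 q of the called peak in each merged region near Hox genes described in the text (x axis, ordered from the 3′ side of each cluster; dotted lines part Hoxa, Hoxb, Hoxc and Hoxd) in the 4 peak lists (y axis). Circle area grows with −log10 q, printed above each circle; a missing circle means that no peak was called, and the Hoxa4 column is the one with circles in 3 lists. Columns are named by gene interval, so the regions at and near the distant 5′ end of Hoxa3 stand under Hoxa6.

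In Hoxb, 5 regions were called, all weak. The promoter of Hoxb4, a gene known for the renewal of blood stem cells, lay partly under a WDM-WDO peak (96318135 to 96318686, −log10 q of 3.91), and a WDM-CDO peak overlapped that peak inside the gene (96318581 to 96318893, 4.00). A region 4 kb into the long Hoxb3 span, upstream of Hoxb4, was called in WDM-WDO (96311261 to 96312176, 5.53) and in CDM-CDO (96311627 to 96312009, 2.91). The other 3 were called in 1 list each: 96314927 to 96315528, also upstream of Hoxb4, in WDM-WDO (3.65), one in Hoxb2, a hindbrain gene, in CDM-WDO (96352653 to 96353247, 2.28), and one in Hoxb6 in WDM-CDO (96294649 to 96294994, 3.98). Hoxb1, Hoxb9 and Hoxb13 had no peak within 10 kb in any list.

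Hoxc was almost without peaks. Of its 9 genes, 8, from Hoxc5 to Hoxc13, had no peak within 10 kb in any list. The one peak was inside the long span of Hoxc4, in WDM-WDO (103028483 to 103028889, −log10 q of 3.24, 21 reads at the summit, against a lowest called pileup of 16 in that list).

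In Hoxd, each of the 6 regions was called in 1 list only. Hoxd1, which acts in sensory neurons, had a peak starting 46 bases inside the gene in CDM-WDO (74763026 to 74763321, −log10 q of 1.90) and one 352 bases inside it in WDM-CDO (74763332 to 74763653, 2.71). These stopped 10 bases short of touching, so that at the 5′ side of Hoxd1 the count of 2 regions rests on that gap. A peak between Hoxd1 and Hoxd3 was called in CDM-CDO (74749377 to 74749858, 4.61), and one upstream of Hoxd3, a gene known to make endothelial cells invasive, in WDM-WDO (74710155 to 74710536, 2.32). Hoxd9 had one in WDM-CDO (74698031 to 74698582, 3.27) and Hoxd11, a limb gene, one in CDM-WDO (74680954 to 74681368, 2.25). Hoxd4 had none within 10 kb in any list.

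Hox peaks were weak within their own lists. Of the 30, 23 ranked in the weaker 50% of their list by −log10 q, and 3 had a −log10 q of 15 or more. In the peaks described above, fold enrichment ran from 2.27 to 4.15 and the pileup at the summit from 18 to 45 reads. Their widths ran from 274 to 916 bases.

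Counted by gene, 16 of 39 Hox genes had a peak within 10 kb in WDM-WDO (41.0%, interval 27.1 to 56.6%), 16 in CDM-WDO (41.0%, 27.1 to 56.6%), 19 in WDM-CDO (48.7%, 33.9 to 63.8%) and 11 in CDM-CDO (28.2%, 16.5 to 43.8%). The same was true of 66.0%, 58.9%, 68.8% and 64.5% of all protein-coding genes, and each of these lay above the interval of the Hox genes. In all 4 lists 8 Hox genes had such a peak, among them Hoxa3, Hoxa5, Hoxa6, Hoxa7, Hoxa9 and Hoxb3, and in none had 14. The windows of neighbours overlap, and a single peak could count for several genes. These shares were not matched for gene length: after merging, the windows covered 517 kb for the 39 Hox genes and 1.28e+06 kb for all 21631 genes. With every list at the length of the shortest, 18962 peaks, the counts were 6, 16, 9 and 10, so that CDM-WDO and not WDM-CDO was highest. The share of all genes was not recomputed at that length.

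Gene-end peaks, those within 1 kb of either end of a gene, were fewer still. They were called for 3 of 39 Hox genes in WDM-WDO (7.69%, 2.65 to 20.3%), 5 in CDM-WDO (12.8%, 5.60 to 26.7%), 8 in WDM-CDO (20.5%, 10.8 to 35.5%) and 2 in CDM-CDO (5.13%, 1.42 to 16.9%), against 47.6%, 40.2%, 51.2% and 48.1% of all genes. In total 10 genes had one in at least 1 list, 29 had one in no list, and none had one in all 4. Hoxa3 had one in WDM-WDO, WDM-CDO and CDM-CDO, and Hoxa4 in all but CDM-CDO. Hoxa5, Hoxa6 and Hoxd1 had one in CDM-WDO and WDM-CDO, and Hoxb4 in WDM-WDO and WDM-CDO. Hoxb2 had one in CDM-WDO alone, Hoxa9 and Hoxd9 in WDM-CDO alone, and Hoxa7 in CDM-CDO alone. With 2 kb in place of 1 kb the counts were 5, 8, 10 and 4 Hox genes, against 51.0%, 43.3%, 54.6% and 51.3% of all genes. A peak inside the gene span was called for 5, 6, 8 and 4 Hox genes, against 56.1%, 47.8%, 59.5% and 55.2% of all genes, with gene length not matched.

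The genes next in line on both sides of the clusters were not short of such peaks, though some lie far off. Of the 40 that flank the clusters, 5 on each side of each, 29 had a gene-end peak in WDM-WDO (72.5%), 26 in CDM-WDO (65%), 29 in WDM-CDO (72.5%) and 29 in CDM-CDO (72.5%). All 26 of CDM-WDO had one in the other 3 lists too, and Snx10, Snf8 and Mtx2 lacked one in CDM-WDO alone. Their median −log10 q was 67.8, 41.1, 71.3 and 37.9. Cbx5 and Hnrnpa1, which share a gene-end peak beside Hoxc and encode a heterochromatin protein and an RNA-binding protein, reached 130, 98.0, 173 and 115. Skap2, an adaptor gene beside Hoxa, reached 83.1, 49.0, 71.3 and 37.9. Evx1 and Evx2, homeobox genes just outside Hoxa and Hoxd, had no gene-end peak in any list. Mtx2, a mitochondrial import gene beside Hoxd, had one in WDM-WDO (15.04), WDM-CDO (11.99) and CDM-CDO (11.67) and none in CDM-WDO.

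**Figure D3:**
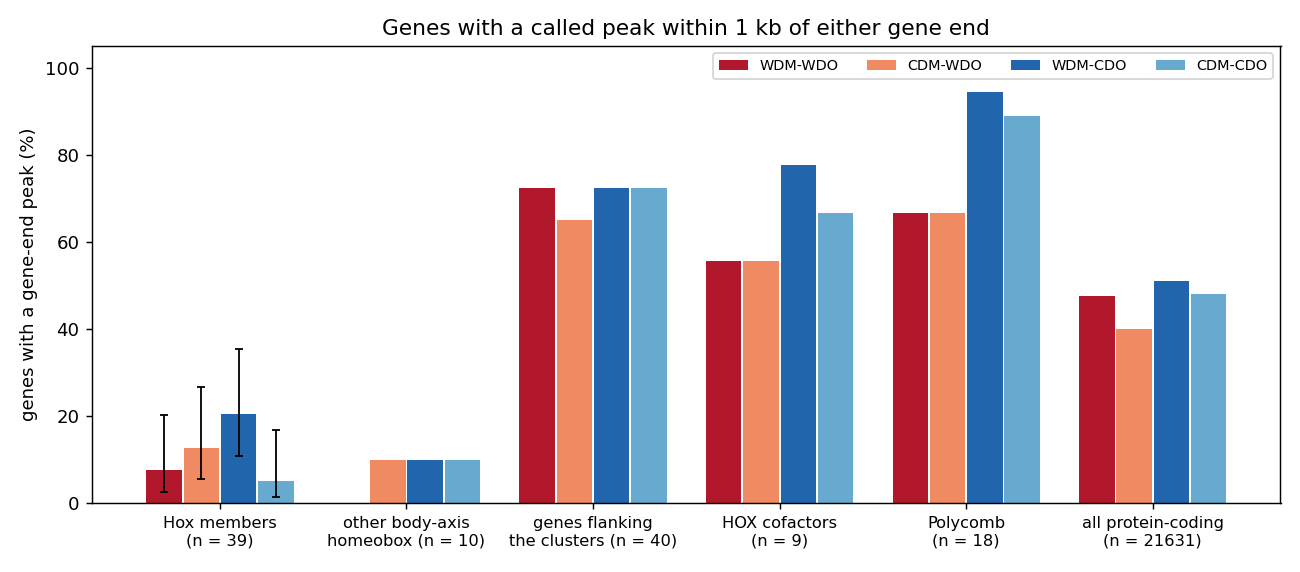
Share of genes (y axis, percent) with a called peak within 1 kb of either gene end, for Hox genes and other gene sets (x axis, with the number of genes) in the 4 lists (colours). Black lines are 95% Wilson intervals of the Hox shares, which stand between 5.13% and 20.5%, below the 40.2% to 51.2% of all genes in every list.

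Per length, the Hox windows did not hold fewer peaks in every list. The windows of the 39 genes covered 517 kb after merging, and held 1.55 peaks per 100 kb in WDM-WDO, 1.35 in CDM-WDO, 1.93 in WDM-CDO and 0.966 in CDM-CDO. The windows of all protein-coding genes held 1.60, 1.08, 1.69 and 1.37. The Hox density was thus below theirs in WDM-WDO and CDM-CDO and above theirs in CDM-WDO and WDM-CDO. These densities were not matched for the number of genes, which lie closer together in the Hox clusters. In the same order of lists, the windows of the 39 Hox genes held 8, 7, 10 and 5 peaks. Those of all 21631 genes held 20469, 13848, 21582 and 17562, so the Hox windows held fewer peaks per gene in each list. Hoxa held 2.39, 3.19, 4.78 and 2.39 per 100 kb, above those of all gene windows in each list. Hoxb held 2.15, 0.718, 1.44 and 0.718, Hoxd 0.855, 1.71, 1.71 and 0.855, and Hoxc 0.737 in WDM-WDO and 0 in the other 3 lists. These rest on 16 peaks in Hoxa, 7 in Hoxb, 1 in Hoxc and 6 in Hoxd over all lists. The 100 kb on each side of the clusters, beyond the 10 kb margins, held 0.75, 0.5, 1.5 and 0.875 peaks per 100 kb. That was below the pooled windows of the 39 Hox genes in each list, but not cluster by cluster. The Hoxb flanks were above Hoxb in WDM-CDO (2.5 against 1.44) and CDM-CDO (2 against 0.718). The Hoxd flanks were above Hoxd in WDM-WDO and CDM-CDO (1 against 0.855 in both). In their remaining lists, and in every list for Hoxa, the flanks were below the cluster, and the Hoxc flanks held 0. Some of the flanking genes lie beyond these stretches of 100 kb, such as Creb5, which starts at 53287226 where Hoxa ends at 52260880.

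Along the clusters, the intervals of the highest-numbered genes held few peaks. Each cluster was cut at the 3′ ends of its genes, so that a gene's interval runs from its 3′ end to the next 3′ end. The bodies of long genes such as Hoxa3 and Hoxb3 reach into the intervals of other genes. The peaks at and near the distant 5′ end of Hoxa3 thus counted with Hoxa6. The intervals of paralogues 1 to 4 held 19 of the 30 peaks, those of 5 to 8 held 9, and those of 9 to 13 held 2, although the last made up 16 of the 39 genes and 201 kb. Paralogues 1 to 4, with 12 genes and 185 kb, held 3.78 peaks per 100 kb in WDM-WDO, 2.16 in CDM-WDO, 2.70 in WDM-CDO and 1.62 in CDM-CDO. Paralogues 5 to 8, with 11 genes and 91.6 kb, held 1.09, 2.18, 4.37 and 2.18, a density below that of paralogues 1 to 4 in WDM-WDO and at or above it in the other 3 lists. These include the peaks of WDM-WDO, WDM-CDO and CDM-CDO at and near the distant 5′ end of Hoxa3. The order between these 2 segments depends in part on where that end is counted. Paralogues 9 to 13 held 0 in WDM-WDO, 0.498 in CDM-WDO, 0.498 in WDM-CDO and 0 in CDM-CDO. Their only peaks, at Hoxd9 and Hoxd11, were in Hoxd. Within Hoxd, paralogues 9 to 13 held 2.38 per 100 kb in CDM-WDO and WDM-CDO and 0 in WDM-WDO and CDM-CDO. Paralogues 1 to 4 of Hoxd held 1.75 in each list. Position was also mixed with cluster, since 73.4 kb of the 201 kb lay in Hoxc, which was almost without peaks.

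**Figure D4:**
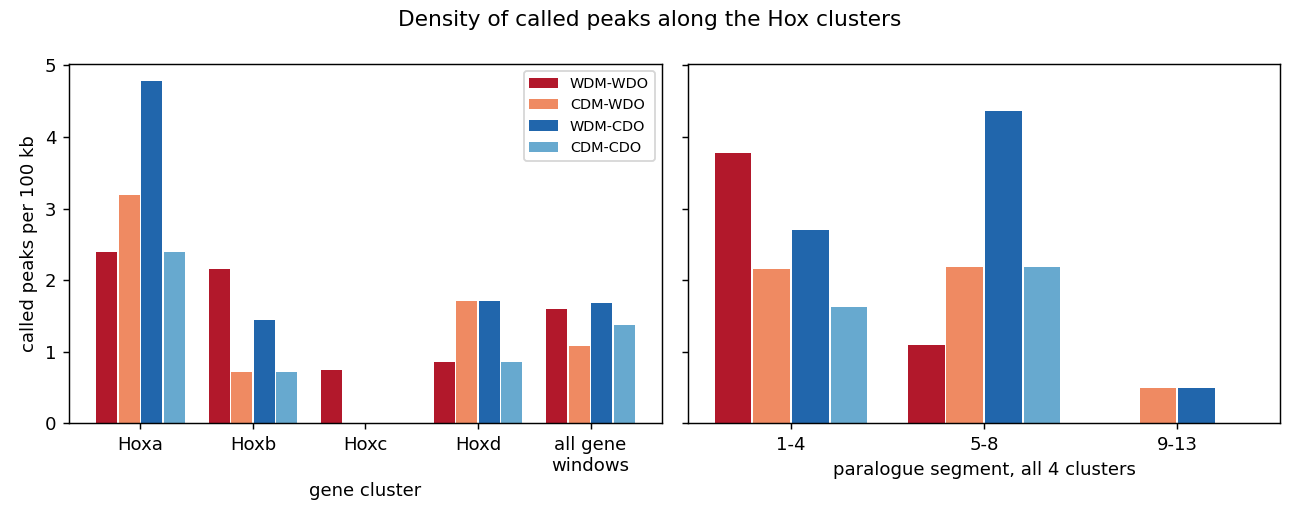
Called peaks per 100 kb (y axis) in each Hox cluster and in the windows of all protein-coding genes (left), and in the intervals of paralogues 1 to 4, 5 to 8 and 9 to 13 over the 4 clusters (right), for the 4 lists (colours). Hoxa stands above the gene windows in each list, from 2.39 to 4.78 per 100 kb, and paralogues 9 to 13 reach at most 0.498.

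The diet of the mothers was compared first in offspring on CD. WDM-CDO had more Hox peaks than CDM-CDO, 10 against 5, and Hoxa held 6 against 3. No overlapping peak stood in CDM-CDO for 9 of the 10 from WDM-CDO (90%, 59.6 to 98.2%), against 40.8% of all peaks of that list. In the other direction, 4 of 5 lacked one (80%, 37.6 to 96.4%), against 24.2%. Weak peaks were less often shared: among all peaks with a −log10 q under 15, a limit set after the Hox values were seen, the shares were 62.8% and 36.8%. The Hox shares here and below count Hox peaks of any −log10 q. Under the same limit, 9 of 9 and 4 of 5 Hox peaks lacked a counterpart. Weak peaks at large were not matched to the Hox peaks in strength. Gene-end peaks were in WDM-CDO alone at 7 Hox genes, Hoxa4, Hoxa5, Hoxa6, Hoxa9, Hoxb4, Hoxd1 and Hoxd9, against 4.98% of all genes, and in CDM-CDO alone at 1, Hoxa7, against 1.91%.

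In offspring returned to WD, WDM-WDO had 8 Hox peaks and CDM-WDO 7, with 3 and 4 of them in Hoxa and 3 and 1 in Hoxb. Of the 8, 6 had no counterpart in CDM-WDO (75%, 40.9 to 92.8%), against 53.2% of all and 75.3% of weak peaks. Of the 7, 5 had none in WDM-WDO (71.4%, 35.9 to 91.8%), against 35.2% and 48.0%. With lists of equal length the counts of Hox peaks without a counterpart were 2 and 6, so the order between the mothers' diets turned. The share of all peaks was not recomputed at that length. Gene-end peaks were in WDM-WDO alone at 2 Hox genes, Hoxa3 and Hoxb4, against 9.57% of all genes, and in CDM-WDO alone at 4, Hoxa5, Hoxa6, Hoxb2 and Hoxd1, against 2.14%. The Hoxa5 and Hoxd1 ends were thus called with CD mothers in WDO offspring and with WD mothers in CDO offspring, whereas Hoxb4 was called with WD mothers under both offspring diets. At a −log10 q of 5 or more only the Hoxa5 calls were left. The Hoxd1 calls were separate peaks with a −log10 q of 1.90 and 2.71, and those of Hoxb4 had 3.91 and 4.00. With lists of equal length WDM-CDO held 0 peaks in Hoxb and 0 in Hoxd.

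The diet of the offspring was compared within each kind of mother, with lists that also serve in the comparisons above. CDM-WDO had 7 Hox peaks and CDM-CDO 5. Of these, 6 had no counterpart in CDM-CDO (85.7%, 48.7 to 97.4%), against 40.3% of all and 54.9% of weak peaks, and 4 had none in CDM-WDO (80%, 37.6 to 96.4%), against 49.1% and 69.1%. Gene-end peaks were in CDM-WDO alone at 5 Hox genes, Hoxa4, Hoxa5, Hoxa6, Hoxb2 and Hoxd1, against 2.01% of all genes, and in CDM-CDO alone at 2, Hoxa3 and Hoxa7, against 9.96%. Over all genes CDM-CDO thus had more one-sided gene ends, and over the Hox genes CDM-WDO had.

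WDM-WDO had 8 Hox peaks and WDM-CDO 10. Of the 8, 4 had no counterpart in WDM-CDO (50%, 21.5 to 78.5%), against 37.9% of all and 55.0% of weak peaks, and of the 10, 6 had none in WDM-WDO (60%, 31.3 to 83.2%), against 42.9% and 63.4%. These shares were near those of weak peaks at large. Gene-end peaks were in WDM-CDO alone at 5 Hox genes, Hoxa5, Hoxa6, Hoxa9, Hoxd1 and Hoxd9, against 6.33% of all genes. WDM-WDO had none that WDM-CDO lacked, against 2.75%.

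**Figure D5:**
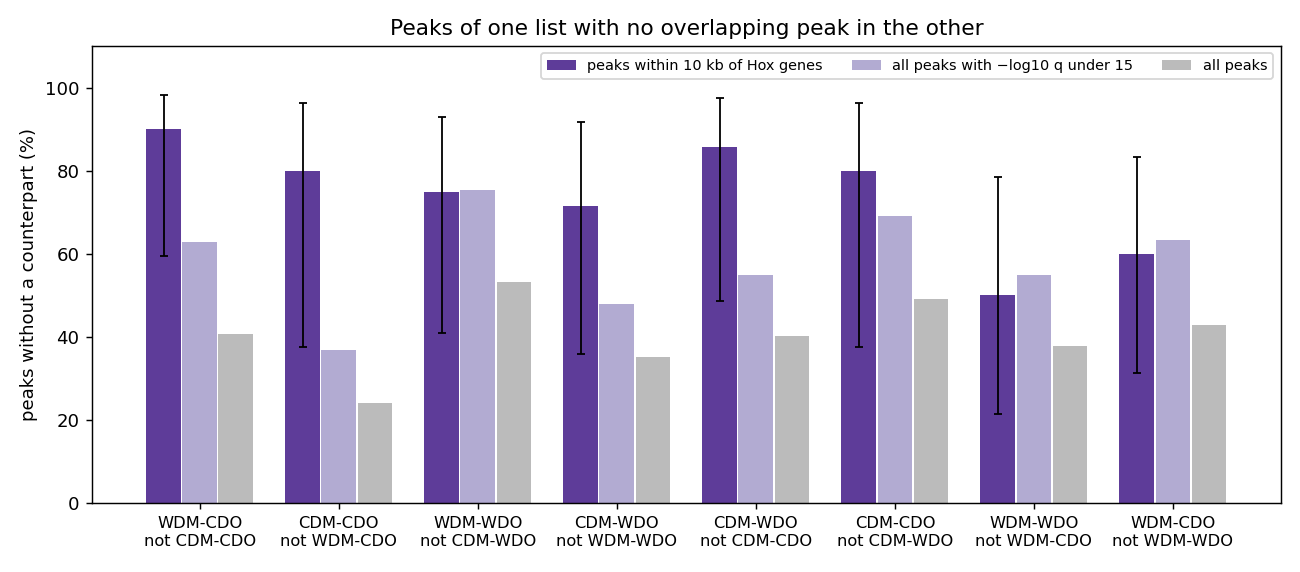
Share of the peaks of one list (y axis, percent) that overlap no peak of the other list of a pair (x axis), for peaks within 10 kb of Hox genes, for all peaks with −log10 q under 15 and for all peaks. Black lines are 95% Wilson intervals of the Hox shares, which run from 50% to 90% and rest on 5 to 10 peaks each. The Hox bars count Hox peaks of any −log10 q, not only those under 15.

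The clusters also hold microRNA genes, of which 6 were matched. Mature sequences are from RefSeq (GRCm38.p6), with the seed, bases 2 to 8, in capitals, because the seed sets which messages a microRNA finds.
mmu-miR-10a-5p: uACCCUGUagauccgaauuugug
mmu-miR-10b-5p: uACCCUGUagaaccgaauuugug
mmu-miR-196a-5p: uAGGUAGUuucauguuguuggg
mmu-miR-196b-5p: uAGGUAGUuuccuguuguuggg
miR-10a and miR-10b share a seed, as do miR-196a and miR-196b. miR-10a, which in human endothelium is known to damp inflammatory signalling, lies beside Hoxb4. Its gene (chromosome 11, 96317165 to 96317274) had the Hoxb4 promoter peak 861 bases away in WDM-WDO, and the nearest peak lay 35379 bases away in CDM-WDO, 1307 in WDM-CDO and 5156 in CDM-CDO. The gene of miR-10b, in Hoxd4, had its nearest peak 15534, 36889, 27488 and 23240 bases away. No peak was called within 1 kb of any of the 3 miR-196 genes or of Mir615.

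Genes that write, read and assist the Hox pattern were set against the 47.6%, 40.2%, 51.2% and 48.1% of all genes with gene-end peaks. Those of Polycomb, trithorax, HOX cofactors, and insulation and cohesin had larger shares in each list. Those of retinoic acid signalling had smaller ones. Of 9 genes for HOX cofactors, the PBX, MEIS and PKNOX proteins that bind DNA with HOX proteins, 5 had one in WDM-WDO, 5 in CDM-WDO, 7 in WDM-CDO and 6 in CDM-CDO. Pbx3, Pbx4, Meis1 and Pknox1 were among those with one in all lists, Pknox2 in WDM-CDO (4.88) and CDM-CDO (4.53), and Meis3 in WDM-CDO alone (14.1). Of 18 Polycomb genes, 12, 12, 17 and 16 had one, 11 of them in all lists, among which were Ezh2, Eed and Suz12 of the complex that writes H3K27 methylation. Cbx2, Cbx7 and Phc2 had one in WDM-CDO (6.19, 3.76 and 14.1) and CDM-CDO (4.16, 3.56 and 7.12) but in neither WDO list, and Cbx6 in WDM-CDO alone (14.6). Ezh1 had one in WDM-WDO (16.8), WDM-CDO (17.1) and CDM-CDO (8.91) and Pcgf6 in CDM-WDO (4.39), WDM-CDO (18.3) and CDM-CDO (14.6), while Bmi1 had none in any list.

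Of 9 trithorax and H3K27 demethylase genes, 8, 8, 7 and 7 had a gene-end peak, 7 of them in all lists, Kmt2a and Kdm6b included. The exception that moved was Kdm6a, whose peak reached within 1 kb of the gene end in WDM-WDO (100.8) and CDM-WDO (68.5) only, while a peak lay inside the gene in every list. Of 13 genes for retinoic acid receptors and enzymes, 2, 2, 5 and 2 had one. Rxrb and Rdh10 had one in all lists, and Rarg (3.09), Rxra (2.79) and Aldh1a3 (4.25) in WDM-CDO alone. Of 7 insulation and cohesin genes, 4, 4, 5 and 4 had one, with Nipbl in WDM-CDO alone (3.15). Of 10 other homeobox genes of the body axis, Meox2, a gene of vascular cells and muscle, was the only one with a gene-end peak, in CDM-WDO (7.93), WDM-CDO (7.0) and CDM-CDO (4.76).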

How the data were processed

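Per the labels, ATAC-seq was done on 8 samples of mouse aortic endothelial cells. The authors deposited 1 narrowPeak list per group; no source used here says whether the 2 samples of a group were pooled before calling or whether read ends were moved to the cut site. Per the submitters' processing notes the build was GRCm38 (mm10), and they list MACS2 2.2.9.1, Bowtie2 2.4.5, deepTools 3.5.4, SAMtools 1.13, Trim Galore 0.6.10 and FastQC 0.12.1. Fold enrichment (a ratio), −log10 p and −log10 q were used as deposited by the authors, and the summit offset gave the summits. Groups were taken from the titles.

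Here, peaks on chromosomes 1 to 19 and X were matched to genes of a RefSeq table of GRCm38.p6. Peaks within 10 kb of a Hox span counted as near, within 1 kb of either end as gene-end peaks, and with 1 shared base as counterparts. No genome sequence was used. Whole pileups were recovered from fold and −log10 p under a Poisson model; they matched within a relative tolerance of 0.0001 for 99.87% to 99.98% of the peaks of a list. Python 3.11.15, pandas 2.3.3, NumPy 2.4.6 and SciPy 1.17.1 were used, and the counting and the recovery were tested on simulated data. Wilson intervals cover counting error only, and read depth per sample is unknown.

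The genes, lists and windows were chosen with earlier results of these data known. Named were all Hox genes with a gene-end peak, all regions in 1 list of a pair only, flanking genes, and genes of the fixed lists whose calls differ; Cbx5, Hnrnpa1 and Skap2 were named after their values were seen. Alternatives were other distances, a −log10 q of at least 5, equal list length and other overlap rules. Some items are not reported here. No blacklist of artefact-prone regions was applied here.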

Additional observations from a re-analysis of the deposited data

Results flagged for a closer look

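The contrast between mothers' diets went opposite ways under the 2 offspring diets at 3 regions and in 2 clusters. The difference was not tested, since each group has 1 list. How many of all 48003 merged regions have such a pattern was not counted, so it cannot be called particular to Hox genes. The region at the 5′ end of Hoxa5 was called in CDM-WDO and WDM-CDO only, with a −log10 q of 7.11 and 13.1. The region between Hoxa7 and Hoxa9 had the same pattern, with 3.91 and 5.84. The region in the long Hoxb3 span, upstream of Hoxb4, was called in WDM-WDO and CDM-CDO only, with 5.53 and 2.91. At a −log10 q of 5 or more, the pattern held at Hoxa5 and was lost at the other 2 regions, where 1 list was left. In Hoxa, WDM minus CDM was -1 peak in WDO offspring and 3 peaks in CDO offspring. In Hoxd it was -1 in WDO offspring and 1 in CDO offspring. With peaks limited to a −log10 q of 5 or more the Hoxa difference was -1 and 5, and Hoxd held no peak. With lists of equal length it was -3 and 4 in Hoxa, but -2 and -1 in Hoxd, which no longer went opposite ways; in Hoxb it was then 1 and -1, against 2 and 1 with the lists as deposited.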

How the results depend on the processing

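No paired analysis was possible because each group has 1 list and the lists hold no sample numbers; for the same reason no replicate could be left out. Values below run in the order WDM-WDO, CDM-WDO, WDM-CDO, CDM-CDO. Of 242 values recomputed, 158 stayed within 1.5 times the reported one and 84 moved further; causes were not tested. The stricter threshold moved 41 of 53 values, equal list length 23 of 53, the 2 kb gene end 5 of 12 and the promoter window 3 of 4. At the stricter threshold and at equal list length, the shares over all genes and all peaks were not recomputed. Moves of the Hox counts there cannot be called particular to Hox genes.

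Limited to a −log10 q of 5 or more, 6, 5, 9 and 2 Hox genes had a peak within 10 kb and 0, 2, 5 and 0 a gene-end peak. Hoxa then held 1, 2, 6 and 1 peaks, Hoxb 1, 0, 0 and 0, and Hoxc and Hoxd 0. Paralogues 1 to 4 held 2, 1, 3 and 1, paralogues 5 to 8 held 0, 1, 3 and 0, and paralogues 9 to 13 held 0. Unshared Hox peaks were 5 in WDM-CDO and 0 in CDM-CDO, 1 in WDM-WDO and 1 in CDM-WDO, 1 in CDM-WDO and 0 in CDM-CDO, and 1 in WDM-WDO and 5 in WDM-CDO; one-sided gene ends were 5 and 0, 0 and 2, 2 and 0, and 0 and 5 in the same pairs.

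With all lists at the length of the shortest, 18962 peaks, 6, 16, 9 and 10 Hox genes had a peak within 10 kb and 1, 5, 5 and 1 a gene-end peak. Hoxa held 1, 4, 6 and 2, Hoxb 2, 1, 0 and 1, Hoxc 0, and Hoxd 0, 2, 0 and 1. Paralogues 1 to 4 held 3, 4, 3 and 3, paralogues 5 to 8 held 0, 2, 3 and 1, and paralogues 9 to 13 held 0, 1, 0 and 0. Unshared peaks in the same pairs were 5 and 3, 2 and 6, 6 and 3, and 2 and 5, and one-sided gene ends 4 and 0, 1 and 5, 5 and 1, and 1 and 5, so that for WDO offspring the order between mothers' diets turned for unshared peaks.

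Counted inside the spans only, 5, 6, 8 and 4 genes had a peak, Hoxd held 0, 2, 2 and 0 peaks, paralogues 5 to 8 of CDM-WDO held 1, and the other counts held within 1.5 times; paralogues 1 to 4 held 6, 4, 5 and 2. Within 5 kb, 11, 14, 15 and 7 genes had one. Gene ends taken as 0.5 kb gave 3, 4, 7 and 0 genes, with 0 in CDM-CDO alone against WDM-CDO and against CDM-WDO, and as 2 kb 5, 8, 10 and 4, with 2 and 3 in CDM-CDO alone, 6 in CDM-WDO alone against WDM-WDO, 3 in WDM-WDO alone against CDM-WDO and 1 in WDM-WDO alone against WDM-CDO. The promoter window, chosen after seeing the data, gave 2, 2, 2 and 0 genes. With summits within 250 bases as the rule for sharing, 0 Hox regions were in all 4 lists. An overlap of 50% of the shorter peak moved no count past 1.5 times, nor did leaving out peaks with a −log10 q of 15 or more, an alternative also chosen after seeing the data. In all alternatives run, WDM-CDO had more peaks in Hoxa than each other list, Hoxc held at most 1 peak in any list and paralogues 9 to 13 at most 1.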

Other observations

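Of the 30 Hox peaks, 18 lay in the span of a long non-coding RNA gene. The share of all peaks in such spans was not computed, so the count has nothing to be set against. In the span of Hoxaas3, an antisense gene of the Hoxa cluster, were the 5 peaks at the 5′ end of Hoxa5 and at or near the distant 5′ end of Hoxa3. Over the 4 lists, 1 peak lay in the gap between Hoxb9 and Hoxb13 more than 10 kb from either gene; it was called in CDM-CDO (chromosome 11, 96251209 to 96251504).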
